A study of Mus musculus with 12 samples.

Results

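Peg10, Aplp2, Car3 and Cd24a are 4 genes from the published group whose expression was linked to Ser273 of PPARγ, and they were chosen by their measured values: rosiglitazone read higher than MRL24 while S273A differed little from untreated wild-type. All probe sets that the platform annotation maps to exactly 1 of these symbols were used. This gave 11 of 22690 probe sets on the array, for 4 of 12393 genes: 1 for Peg10, 5 for Aplp2, 2 for Car3 and 3 for Cd24a. The choice rests on the values of all 4 groups, so levels and differences of these genes are a description and carry no test.

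The arrays hold RNA from mouse embryonic fibroblasts in which the endogenous PPARγ gene is knocked out and a receptor was put back; knock-out of the host gene is common to all 4 groups. Cells with wild-type receptor given 1 µM rosiglitazone, cells with wild-type receptor given 1 µM MRL24, cells with the S273A receptor and untreated cells with wild-type receptor made up the groups, with 3 arrays each. Differentiation into fat cells ran for 6 days and ligands were then present for 24 h. The sample titles call S273A only mutant, and the series text gives the substitution. The labels give no vehicle for untreated cells, no clone, no promoter for the introduced receptor and nothing on separate cultures behind the 3 arrays of a group, so p-values reflect array-to-array spread alone and that spread may be technical. S273A and wild-type receptor were each in 1 set of cells as far as the labels say, so the substitution and a difference between the 2 sets of cells cannot be told apart.

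PPARγ is a nuclear receptor that pairs with RXR, binds direct repeats of a short half-site in DNA and turns on the genes of fat cell differentiation. Thiazolidinediones such as rosiglitazone are full agonists that recruit coactivators strongly. Ligand binding also blocks phosphorylation of Ser273 by the kinase CDK5, which MRL24 was reported to do with weaker classical agonism, and replacing the serine by alanine removes the site itself. PPARγ phosphorylated there has been linked to altered expression of a limited set of fat cell genes.

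The values were intensities on a linear scale, with array medians of 297 to 315 and maxima of 31882 to 33624. Untreated wild-type replicate 2 stood apart, with a first principal component score of -17.25 against -5.57 to 8.41 on the other 11 arrays. All differences from untreated cells use this array. The fat cell label was checked on markers: of 12 adipocyte markers 10 were on the array and 8 were above the intensity filter (a mean level of 98.7), while Adipoq and Cidec were below it in the mean over all arrays. Of the 8 tested, 5 passed as higher with rosiglitazone, 4 with MRL24 and 2 with S273A, and none as lower. Over all tested genes limma called 3.7%, 3.2% and 2.11% higher. With MRL24 the calls of Slc2a4 and Lpl were lost without single arrays (limma, adjusted p up to 0.187 and 0.115). With S273A that of Pnpla2 was lost in the same way (up to 0.0898). The summed intensity of the 10 markers, most of it Fabp4, was 33029.5 to 33490.2 with rosiglitazone, 20956.4 to 21083.7 with MRL24, 14811.8 to 15822 in S273A cells and 13569.1 to 15356.6 in untreated wild-type cells. Its order over the ligand groups was that of the 4 genes, and its part in their levels was not tested. Cd36, Fabp4 and Lpl are both adipocyte markers and PPARγ targets. In RNA from whole cultures, more fat cells and more RNA of a gene per cell cannot be told apart.

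Across the 11 probe sets, the rosiglitazone arrays all lay above the untreated arrays in 11, a pattern met by 11% of all 22626 probe sets that are no controls. The MRL24 arrays lay above the untreated arrays in 9 (14.4% of all), and the S273A arrays in 5 (8.3% of all). Rosiglitazone lay above MRL24 without overlap in 9 (9.06% of all). Both steps, rosiglitazone above MRL24 and MRL24 above untreated, held without overlap in 7 of 11 and in 0.986% of all probe sets. MRL24 lay above S273A without overlap in 5 (16.7% of all). These counts follow from the choice of genes and nothing is read from them. The graded order did not hold in every probe set: MRL24 was within 0.12 of untreated cells on the log2 scale in 3 of 5 Aplp2 probe sets, the ligand arrays overlapped in 2 of 3 for Cd24a, and the mean of S273A lay above that of MRL24 in 1 of 2 for Car3.

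**Figure D1:**
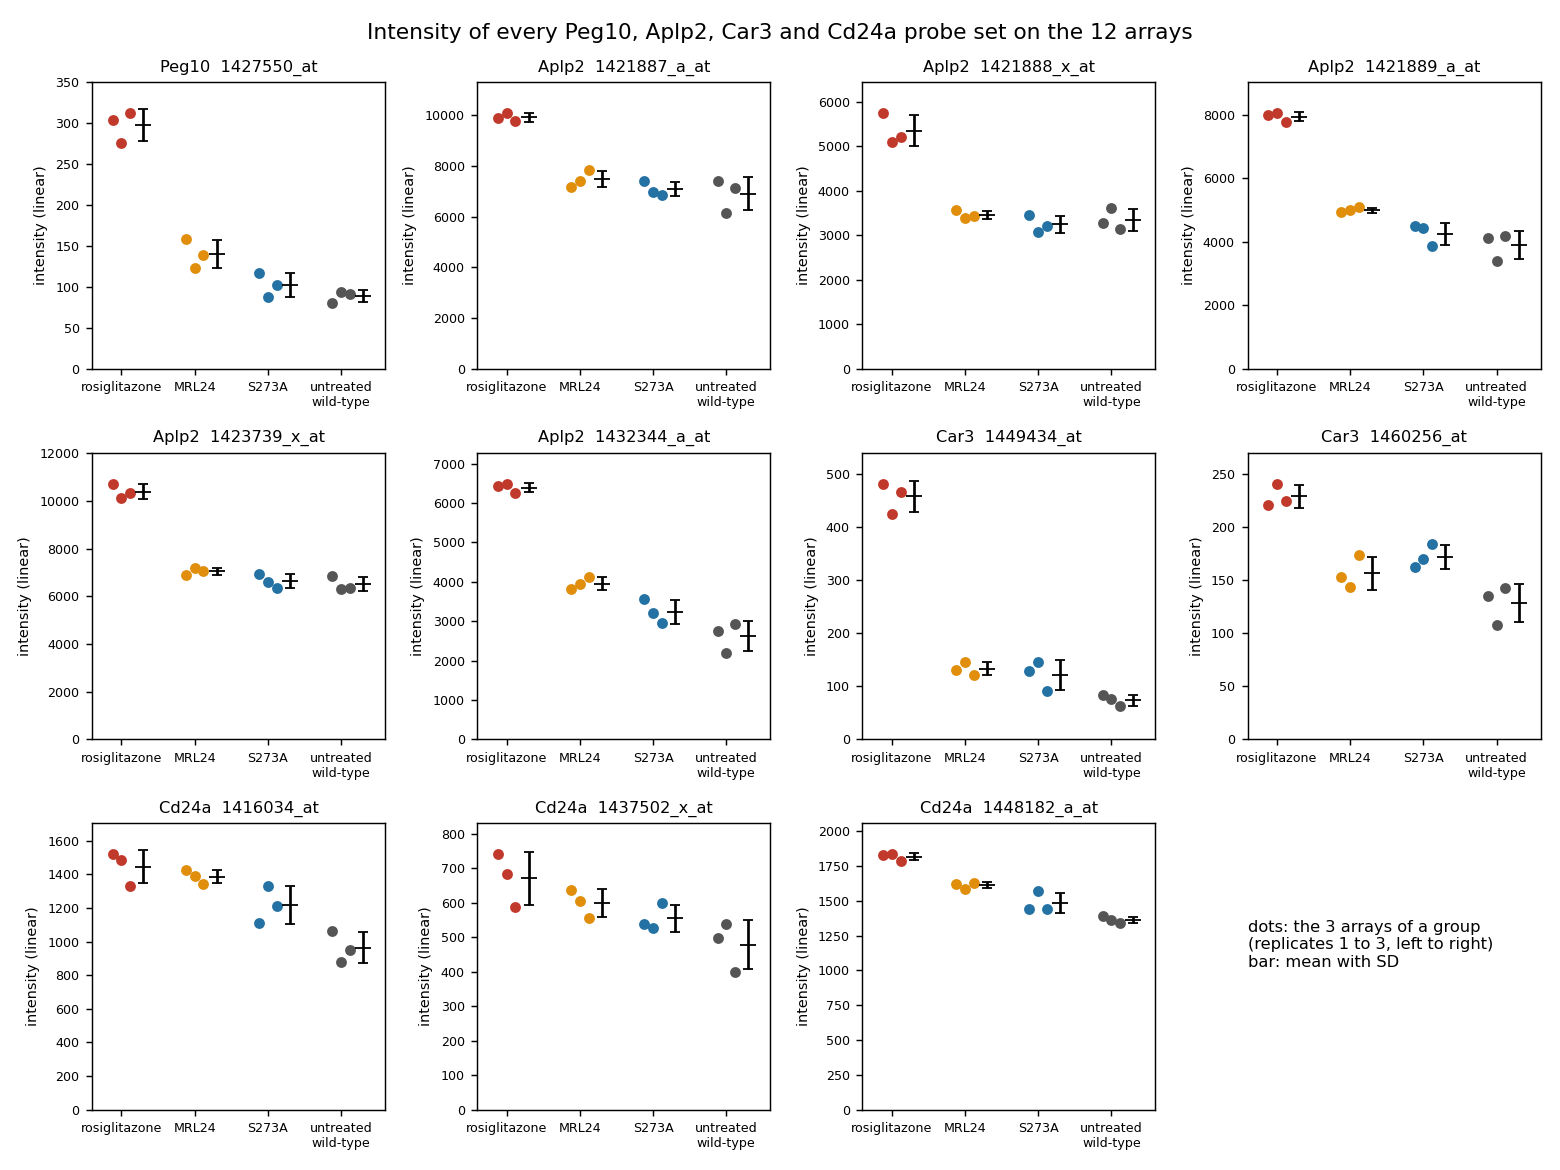
Intensity (linear scale, from 0) of each of the 11 probe sets in the 4 groups, with the 3 arrays of a group as dots and the mean with its SD as a bar. Rosiglitazone arrays lie above untreated arrays in all 11 panels, and S273A arrays overlap the untreated ones in 6.

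Peg10 is a paternally expressed imprinted gene on chromosome 6 (GRCm38.p6, 4747306 to 4760517), derived from the gag and pol genes of a long terminal repeat retrotransposon and needed for the mouse placenta. Its probe set 1427550_at read 304, 276 and 313 on the rosiglitazone arrays and 159, 123 and 139 on the MRL24 arrays. It read 117, 87.7 and 102 in S273A cells and 80.5, 94.0 and 91.2 in untreated wild-type cells. The rosiglitazone arrays stood clear of all others, MRL24 stood clear of both lower groups, and S273A overlapped untreated cells. Peg10 averaged 298 ± 19.4 with rosiglitazone and 140 ± 17.6 with MRL24, against 102 ± 14.6 in S273A and 88.5 ± 7.2 in untreated cells (SD, n = 3 each). On log2(intensity + 16), the difference from untreated cells was 1.58 with rosiglitazone (SE 0.13), 0.57 with MRL24 and 0.17 with S273A. Rosiglitazone minus MRL24 was 1.01 (95% interval 0.73 to 1.29), rank 27 of 22626 probe sets.

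Every Peg10 array of untreated cells lay under the filter level of 98.7, and the gene passed the filter through its ligand groups. Fold changes of such dim probe sets depend on the pseudocount: the rosiglitazone difference was 1.74 with a pseudocount of 1 and 1.24 with 64. The S273A difference of 0.17 was 0.09 without S273A replicate 1 and 0.26 without S273A replicate 2. Over all alternatives of processing and single arrays left out, this difference stayed positive, at 0.085 to 0.263. Its SE was 0.13 and the arrays of S273A and untreated cells overlapped.

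The genes beside Peg10 in its imprinted cluster were measured in the same fit, which tested 9154 genes at an adjusted p threshold of 0.05 (limma, Benjamini-Hochberg). Of all tested genes it called 7.88% with rosiglitazone (3.7% higher, 4.17% lower), 5.49% with MRL24, 7.12% with S273A and 2.5% for rosiglitazone against MRL24. Of 9 neighbours listed, 8 were on the array and 4 were tested, and none passed in any of the 4 comparisons, with 1 at an unadjusted p under 0.05 for each ligand against untreated cells. Sgce, the ε-sarcoglycan gene that shares the control region of Peg10, differed by 0.10 with rosiglitazone (SE 0.06) and by 0.04 with MRL24. Casd1, a sialic acid acetyltransferase gene, differed by 0.33 with rosiglitazone (adjusted p = 0.0957). Its second probe set, of like brightness, differed by -0.01 with rosiglitazone and -0.05 with MRL24. Ppp1r9a was not among the probe sets with 1 symbol.

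Of 40 other imprinted genes 32 were on the array and 22 were tested. With rosiglitazone 2 rose, 1 fell and 19 were not called, and the median difference was -0.004 against -0.001 over all genes. Slc38a4, an amino acid transporter gene, rose by 0.39 (SE 0.07, adjusted p = 0.00272), at 774 ± 17.4 with rosiglitazone and 590 ± 45.7 in untreated cells, while its second probe set differed by 0.10. Mest, which is tied to fat cell size in mice, rose by 0.67 (SE 0.17, adjusted p = 0.0279), and Nnat, a small membrane proteolipid gene, fell by 0.30 (adjusted p = 0.0137). The calls of Mest and Nnat did not hold without single arrays, with adjusted p up to 0.143 and 0.0627. Under MRL24, Slc38a4 (0.32, adjusted p = 0.0205) and Meg3 (0.20, adjusted p = 0.0358), a long non-coding RNA, rose and none fell, where limma called 3.2% of all genes higher and 2.29% lower. Both calls were lost without untreated replicate 2 or MRL24 replicate 2 or 3, and that of Slc38a4 also without MRL24 replicate 1. Without untreated replicate 3 or S273A replicate 2 Meg3 was lost as well (adjusted p up to 0.081 for Slc38a4 and 0.142 for Meg3). With S273A none of the 22 passed, with 1 at an unadjusted p under 0.05. Meg3 was lower with rosiglitazone than with MRL24 by 0.35 (adjusted p = 0.00105). Of other genes derived from such retrotransposons 4 of 16 were on the array and 2 were tested, Rtl6 and Rtl8c. Neither passed in any comparison, and at an unadjusted p under 0.05 there were 2 with S273A and 1 for rosiglitazone against MRL24.

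Aplp2 encodes amyloid precursor-like protein 2, a single-pass membrane protein of the APP family that is cut by secretases and released in part from the cell. The gene lies on chromosome 9 (GRCm38.p6, 31149557 to 31211848). Its 5 probe sets shared the high rosiglitazone level and differed in the rest. Probe set 1432344_a_at read 6435, 6498 and 6259 with rosiglitazone and 3810, 3938 and 4123 with MRL24. It read 3569, 3198 and 2945 in S273A cells and 2743, 2186 and 2927 in untreated cells. None of the 4 groups overlapped there, and the difference from untreated cells was 1.29 with rosiglitazone (SE 0.09), 0.60 with MRL24 and 0.31 with S273A. Untreated replicate 2 was the lowest of the 12 arrays, and without it these differences were 1.17, 0.48 and 0.19.

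Probe set 1421889_a_at of Aplp2 was also graded between the ligands, at 7986, 8054 and 7782 with rosiglitazone and 4927, 4986 and 5083 with MRL24. Its values were 4481, 4430 and 3859 in S273A cells and 4126, 3386 and 4172 in untreated cells, which overlapped. The differences were 1.03 with rosiglitazone (SE 0.07), 0.36 with MRL24 and 0.13 with S273A. The S273A difference was 0.03 without untreated replicate 2.

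In the other 3 Aplp2 probe sets rosiglitazone stood above the rest and MRL24 lay close to untreated cells. The brightest, 1421887_a_at, read 9871, 10080 and 9765 with rosiglitazone and 7184, 7414 and 7840 with MRL24. It read 7386, 6956 and 6866 in S273A cells and 7381, 6151 and 7144 in untreated cells, so that the 3 lower groups overlapped. The differences from untreated cells were 0.53 with rosiglitazone (SE 0.06), 0.12 with MRL24 and 0.04 with S273A, and without untreated replicate 2 they were 0.45, 0.04 and -0.04. Probe set 1421888_x_at averaged 5354 ± 349 with rosiglitazone and 3457 ± 93.4 with MRL24, against 3253 ± 192 in S273A and 3350 ± 243 in untreated cells (SD, n = 3 each). Probe set 1423739_x_at averaged 10382 ± 318 with rosiglitazone and 7039 ± 153 with MRL24, against 6626 ± 290 in S273A and 6499 ± 295 in untreated cells. MRL24 minus untreated was 0.05 and 0.12 in these probe sets (SE 0.06 and 0.04), and S273A minus untreated was -0.04 and 0.03. The MRL24 arrays overlapped untreated cells in the first and lay just above them in the second. In 1421888_x_at untreated replicate 2 was the highest untreated array, and without it the MRL24 difference was 0.105 and the S273A difference 0.016. Over all single arrays left out, the MRL24 difference there was 0.005 to 0.105 and the S273A difference -0.086 to 0.016, so that S273A and untreated cells had no settled order. In 1423739_x_at the S273A difference was -0.005 without S273A replicate 1.

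Rosiglitazone minus MRL24 was closer among the Aplp2 probe sets than either ligand against untreated cells, at 0.40 to 0.69 with SE of 0.04 to 0.09. Suffixes _a and _x in Affymetrix names mark probe sets whose probes match several transcripts of a gene or may pair with other genes. Which exons of Aplp2 each probe set covers was not analysed here, and whether transcript forms differ between the groups was not tested.

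The window from 250 bases before to 50 bases after the annotated start of Aplp2 (RefSeq, GRCm38.p6, chr9:31211799-31212098, minus strand) is given with that of App, its family member that did not pass the test (chr16:85173658-85173957, minus strand). They show how GC-rich both promoters are. Capitals mark GGGCGG or its reverse complement, the GC box bound by Sp1.
Aplp2: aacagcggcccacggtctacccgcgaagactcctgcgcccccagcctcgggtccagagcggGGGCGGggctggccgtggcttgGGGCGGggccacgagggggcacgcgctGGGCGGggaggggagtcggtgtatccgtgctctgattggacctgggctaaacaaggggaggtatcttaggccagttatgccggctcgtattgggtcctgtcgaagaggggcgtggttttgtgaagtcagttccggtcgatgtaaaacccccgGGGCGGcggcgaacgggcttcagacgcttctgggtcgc
App: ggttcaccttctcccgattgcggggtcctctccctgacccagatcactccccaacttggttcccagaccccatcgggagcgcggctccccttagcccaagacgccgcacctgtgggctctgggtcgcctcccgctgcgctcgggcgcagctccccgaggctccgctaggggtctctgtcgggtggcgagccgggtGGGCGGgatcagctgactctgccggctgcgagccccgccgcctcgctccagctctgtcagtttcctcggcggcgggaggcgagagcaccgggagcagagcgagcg
Aplp2 had 4 GC boxes and App had 1, where 35.7% of 32851 promoter windows held at least 1. The Aplp2 window was 67% G or C with 29 CpG pairs, and the App window 71% with 30. AGGTCA, the nuclear receptor half-site, was in neither window on either strand and was in 16.3% of all windows. Direct repeats of AGGTCA with 1 base between them, the element that PPARγ and RXR bind, were in 0.0396% of all windows and in neither of these, nor was a looser form with any base at the fourth position of each half-site (0.381%). TATAAA (13.6% of windows), GCCAAT (14.7%) and TTGCGCAA (0.183%) were also absent from both on either strand, and no motif overlapped another in Aplp2. Of the 4 genes, the promoter table matched Aplp2.

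Of 27 genes of the APP family and its processing 23 were on the array and 22 were tested. With rosiglitazone 1 rose, 2 fell and 19 were not called. App, the founding member, differed by 0.05 with rosiglitazone (SE 0.05), 0.11 with MRL24 and -0.08 with S273A. Of its other probe sets, 1420621_a_at, with a mean of 3393, differed by 0.19 with rosiglitazone and 0.31 with MRL24. The dimmer 1438374_x_at, with a mean of 175, differed by 0.66 and 0.78. Aplp1 rose with both ligands, by 0.29 with rosiglitazone (adjusted p = 0.0265) and 0.36 with MRL24 (adjusted p = 0.0149), and its second probe set differed by -0.07 and -0.04. The rosiglitazone call of Aplp1 was lost without untreated replicate 2 or any 1 rosiglitazone array (adjusted p up to 0.102), and the MRL24 call without untreated replicate 2 or MRL24 replicate 1 or 2 (up to 0.0767).

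Adam17, an α-secretase, fell by 0.33 with rosiglitazone (SE 0.07, adjusted p = 0.0061), at 1216 ± 31.5 with rosiglitazone and 1541 ± 167 in untreated cells. Its 2 other probe sets differed by -0.14 and -0.20. Adam17 fell by 0.25 with MRL24 (adjusted p = 0.0475), a call that was lost when any of 10 single arrays was left out. Its 2 other probe sets differed by 0.17 and -0.04 with MRL24. Dab2, an endocytic adaptor that binds the tails of APP family proteins, fell by 0.31 with rosiglitazone (adjusted p = 0.000351) and read lower with rosiglitazone than with MRL24 (-0.21, adjusted p = 0.0168). Other Dab2 probe sets differed by -0.09 and 0.07 with rosiglitazone. The Dab2 difference between the ligands was lost without rosiglitazone replicate 1 or 2 or MRL24 replicate 2 or 3 (adjusted p up to 0.1). With S273A, where limma called 2.11% of all genes higher and 5.01% lower, 1 of the 22 fell, the α-secretase Adam10 (-0.27, adjusted p = 0.0277), and none rose. Without single untreated or S273A arrays that call was lost (up to 0.0836), and 2 other Adam10 probe sets differed by 0.17 and -0.02.

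Car3 encodes carbonic anhydrase III, a cytosolic enzyme of low hydratase activity that is abundant in fat, slow muscle and liver of rodents. The gene lies on chromosome 3 (GRCm38.p6, 14863538 to 14872381), and its 2 probe sets gave differences of unlike size. Probe set 1449434_at read 482, 424 and 467 with rosiglitazone and 131, 146 and 122 with MRL24. It read 128, 145 and 90.2 in S273A cells and 82.6, 75.2 and 62.2 in untreated cells. Rosiglitazone stood far above the rest, MRL24 and S273A overlapped, and both lay above untreated cells. The differences from untreated cells were 2.41 with rosiglitazone (SE 0.16), rank 4 of 22626 probe sets, 0.74 with MRL24 and 0.60 with S273A. Rosiglitazone minus MRL24 was 1.67 (95% interval 1.33 to 2.01), rank 3.

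Probe set 1460256_at of Car3 read 221, 241 and 225 with rosiglitazone and 153, 143 and 173 with MRL24. It read 162, 170 and 184 in S273A cells and 135, 108 and 143 in untreated cells. Here S273A averaged 172 ± 11.2 and MRL24 156 ± 15.5, with overlapping arrays. Differences from untreated cells were 0.77 with rosiglitazone (SE 0.12), 0.26 with MRL24 and 0.39 with S273A. Without untreated replicate 2, at 108 the lowest array, they were 0.66, 0.15 and 0.28. S273A and MRL24 arrays thus overlapped in both Car3 probe sets. The S273A arrays also lay above the untreated arrays in both, by 0.605 in 1449434_at and 0.386 in 1460256_at. That departs from the choice of the gene, by which S273A differed little from untreated cells.

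In both Car3 probe sets untreated cells were dim, and 1449434_at read below the filter level of 98.7 on all 3 untreated arrays. With a pseudocount of 64 its rosiglitazone difference was 1.93 and with 1 it was 2.63. Skeletal muscle also expresses Car3, so muscle markers were checked: 15 of 15 were on the array and 5 were above the filter, none passed with either ligand or with S273A, and none reached an unadjusted p under 0.05. Their summed intensity was 1402.2 to 1550 with rosiglitazone, 1412.4 to 1563.2 with MRL24, 1311.3 to 1458.8 in S273A and 1337.8 to 1462.3 in untreated cells. Myh7, a myosin of slow muscle, was at or near the floor of the scale in every group, at 6.5 ± 5.7 with rosiglitazone and 1 on each untreated array.

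The 15 other carbonic anhydrases were all on the array and 7 were tested. With rosiglitazone none passed and none had an unadjusted p under 0.05, with a median difference of -0.08. Car2, the fast cytosolic form, read 68.7 ± 26.8 with rosiglitazone, 64.1 ± 27.4 with MRL24, 76.4 ± 4.9 in S273A and 35.4 ± 6.5 in untreated cells and was below the filter. Car4, a membrane-anchored form, was also below it. Car9, the hypoxia-inducible form, fell by 0.69 with MRL24 (adjusted p = 0.0316), a call lost without untreated replicate 2 or MRL24 replicate 2 or 3 (up to 0.138). Neither S273A against untreated cells nor rosiglitazone against MRL24 gave a call among the 7, with 2 and 1 at an unadjusted p under 0.05.

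Cd24a encodes a short, heavily glycosylated protein held to the cell surface by a lipid anchor, which marks early fat cell progenitors in mouse fat and is also found on B cells, neutrophils and epithelia. The gene lies on chromosome 10 (GRCm38.p6, 43579169 to 43584265). Its brightest probe set, 1448182_a_at, read 1827, 1836 and 1788 with rosiglitazone and 1618, 1587 and 1630 with MRL24. It read 1438, 1567 and 1443 in S273A cells and 1387, 1359 and 1340 in untreated cells. None of the groups overlapped, and the order was rosiglitazone, MRL24, S273A, untreated. The differences from untreated cells were 0.41 with rosiglitazone (SE 0.04), 0.24 with MRL24 and 0.12 with S273A. S273A replicate 2 was the highest array of its group, and without it the S273A difference was 0.08.

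The other Cd24a probe sets did not separate the ligands. Probe set 1416034_at read 1520, 1486 and 1332 with rosiglitazone and 1426, 1391 and 1343 with MRL24. It read 1109, 1331 and 1213 in S273A cells and 1065, 877 and 952 in untreated cells. Ligand arrays overlapped each other and lay above the rest, and S273A lay above untreated cells. Differences were 0.58 with rosiglitazone (SE 0.08), 0.52 with MRL24 and 0.33 with S273A. Rosiglitazone minus MRL24 was 0.06, with a 95% interval of -0.12 to 0.23.

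Probe set 1437502_x_at of Cd24a averaged 671 ± 77.4 with rosiglitazone, 599 ± 40.9 with MRL24, 555 ± 38.7 in S273A and 478 ± 71.3 in untreated cells (SD, n = 3 each). Each group overlapped its neighbour in that order, and rosiglitazone minus MRL24 was 0.15 (95% interval -0.09 to 0.40). In the probe set that did separate the ligands the difference was 0.17 (0.08 to 0.26). Left out in turn, single arrays moved the S273A difference of 1437502_x_at (0.21) to between 0.095 (without untreated replicate 3) and 0.303, and its MRL24 difference (0.33) to between 0.204 and 0.412. For the brightest probe sets of Car3 (1460256_at) and Aplp2 (1421887_a_at) it was 0.51 (0.25 to 0.77) and 0.405 (0.27 to 0.54). The genes were chosen on this difference, so its intervals describe array spread and whether genes differ in it was not tested.

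**Figure D2:**
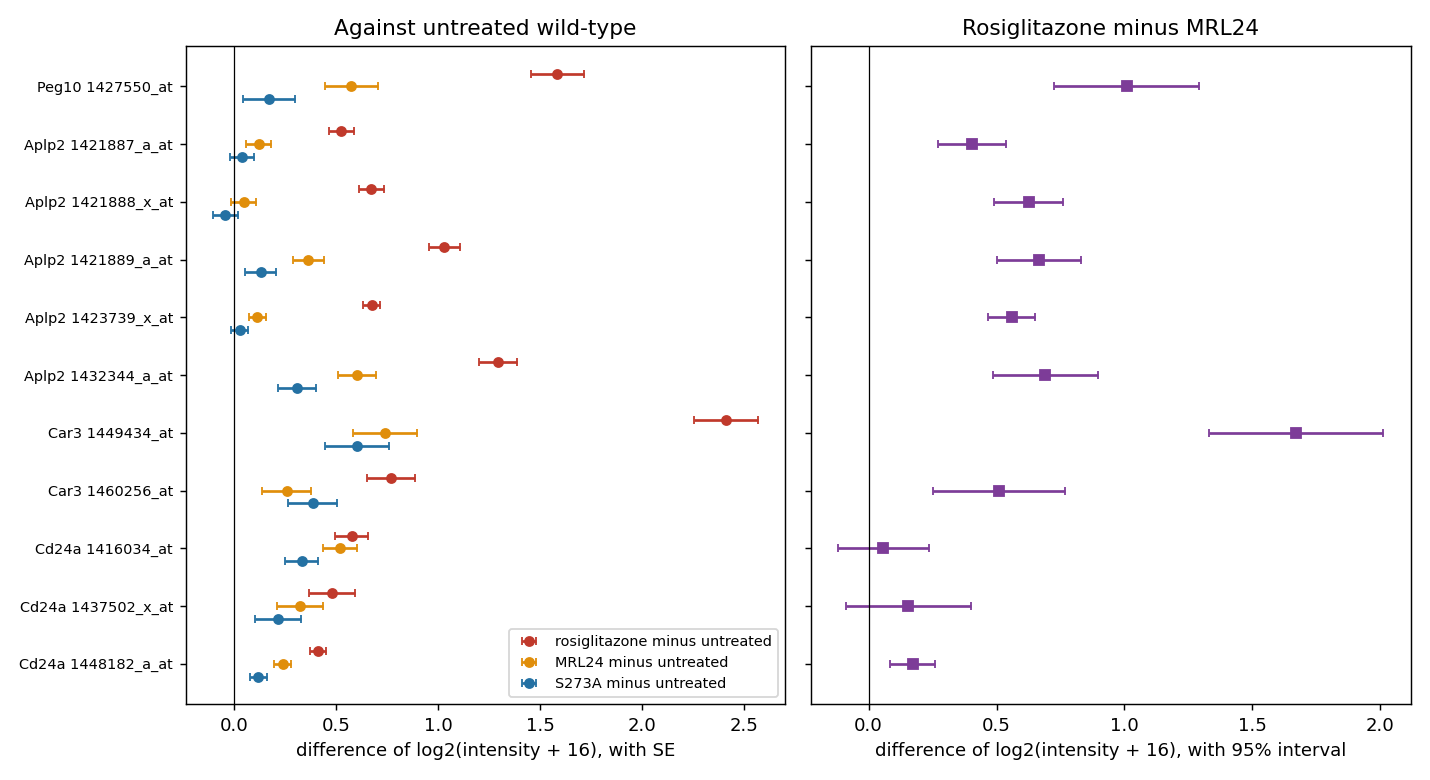
Difference of log2(intensity + 16) for each of the 11 probe sets: left, rosiglitazone, MRL24 and S273A minus untreated wild-type with SE; right, rosiglitazone minus MRL24 with its 95% interval. Rosiglitazone minus MRL24 ran between 0.06 (1416034_at of Cd24a) and 1.67 (1449434_at of Car3).

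Genes tied to Cd24a were covered by the same fit. Of 12 ligands and signalling partners 8 were on the array and 7 were tested. With neither ligand did any pass (limma), with 0 and 3 at an unadjusted p under 0.05 for rosiglitazone and MRL24, and with S273A the Src family kinase gene Fyn fell by 0.20 (adjusted p = 0.0118, lost without S273A replicate 1 at 0.0528). Of 16 other surface markers of fat cell progenitors 15 were on the array and 11 were tested. With rosiglitazone 1 rose, the β1 integrin Itgb1 (0.22, adjusted p = 0.00729), and 2 fell, Pdgfra (-0.37, adjusted p = 0.000785) and Thy1 (-0.30, adjusted p = 0.00261). The median over these 11 was -0.16. With MRL24 2 rose, Itgb1 (0.25, adjusted p = 0.00916) and the tissue factor gene F3 (0.27, adjusted p = 0.0494, above the threshold without any 1 of the 12 arrays), and Pdgfra fell (-0.23, adjusted p = 0.0372, up to 0.122 without single arrays), with a median of -0.06. Thy1 was lower with rosiglitazone than with MRL24 (-0.23, adjusted p = 0.0357), a call lost without any 1 rosiglitazone or MRL24 array (up to 0.161). With S273A 4 fell, Pdgfra (-0.64), Pdgfrb (-0.30), Thy1 (-0.24) and Cd34 (-0.30), and none rose. Over all tested genes limma called 3.7% higher and 4.17% lower with rosiglitazone, 3.2% and 2.29% with MRL24 and 2.11% and 5.01% with S273A. Between the ligands 1.41% were higher with rosiglitazone and 1.09% lower. A second Pdgfra probe set differed by 0.15 with rosiglitazone, 0.39 with MRL24 and -0.03 with S273A. It thus shared neither the fall with the ligands nor that of -0.64 with S273A. Thy1 was lost without S273A replicate 3, and Cd34 without any of 9 single arrays.

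Markers of other cells that carry Cd24a were read beside it. Of 15 haematopoietic markers 13 were on the array and 8 above the filter, and their summed intensity was 4168.8 to 4436 with rosiglitazone, 4099.4 to 4198.6 with MRL24, 5555.1 to 5564.9 in S273A and 4026.3 to 4362.8 in untreated cells. None passed with a ligand, with 2 and 3 at an unadjusted p under 0.05. With S273A Cd68 (0.63) and S100a8 (1.24) rose, where limma called 2.11% of all tested genes higher. The pan-leukocyte gene Ptprc was below the filter, at 51.0 ± 18.9 with rosiglitazone and 48.5 ± 10.5 in untreated cells. Epithelial and neural markers summed to 7114.5 to 7326.4 with rosiglitazone, 6846.1 to 7119.2 with MRL24, 6915.9 to 7158.6 in S273A and 6784.1 to 7167.1 in untreated cells. Krt18, a keratin, rose with rosiglitazone by 0.37 (adjusted p = 0.0143, up to 0.057 without single rosiglitazone arrays), and read higher with rosiglitazone than with MRL24 (0.51, adjusted p = 0.00335). With S273A Krt18 fell by 0.46 (adjusted p = 0.00358), Ncam1, a neural adhesion gene, fell by 0.40 (adjusted p = 0.00198) and Krt19, another keratin, rose by 0.30 (adjusted p = 0.013, 0.0725 without S273A replicate 2). With MRL24 none of the 7 tested passed (limma), with 3 at an unadjusted p under 0.05. Epcam was below the filter. The part of these markers in the Cd24a levels was not tested.

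The other genes of the published Ser273 group were read in the same fit. Of 13 further genes 11 were on the array and 9 were tested. The study chose the group on these samples, so their counts are not independent evidence of a direction. With rosiglitazone 4 rose (Acly, Nr1d1, Cyp2f2 and Txnip), the same number rose with MRL24, 5 rose with S273A and none fell in any of the 3. Over all tested genes limma called 3.7%, 3.2% and 2.11% higher in these comparisons. The median difference of the 9 genes was 0.25 with rosiglitazone, 0.09 with MRL24 and 0.45 with S273A, against -0.001, 0.01 and -0.004 over all genes.

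Rosiglitazone against MRL24 separated 1 of these 9 genes, Rarres2, which encodes the adipokine chemerin (0.37, adjusted p = 0.0273), where limma called 1.41% of all genes higher and 1.09% lower. With every array set to the same median, the split over all genes was 150 higher and 65 lower, against 129 and 100. The Rarres2 call was lost without rosiglitazone replicate 2 or 3 or any 1 MRL24 array (adjusted p up to 0.135), without a filter (0.0647) and by the mean of all probe sets (0.121). Acly, the ATP citrate lyase of fatty acid synthesis, averaged 6090 ± 112 with rosiglitazone, 5214 ± 75.2 with MRL24, 3996 ± 304 in S273A and 3990.5 ± 395 in untreated cells. Its difference between the ligands was 0.22 (SE 0.06, adjusted p = 0.08), and it was called with equal medians or with array weights. Txnip, an inhibitor of thioredoxin, differed by 0.06 between the ligands (SE 0.04), and Cyp2f2, a cytochrome P450 gene, by 0.05 (SE 0.07).

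**Figure D3:**
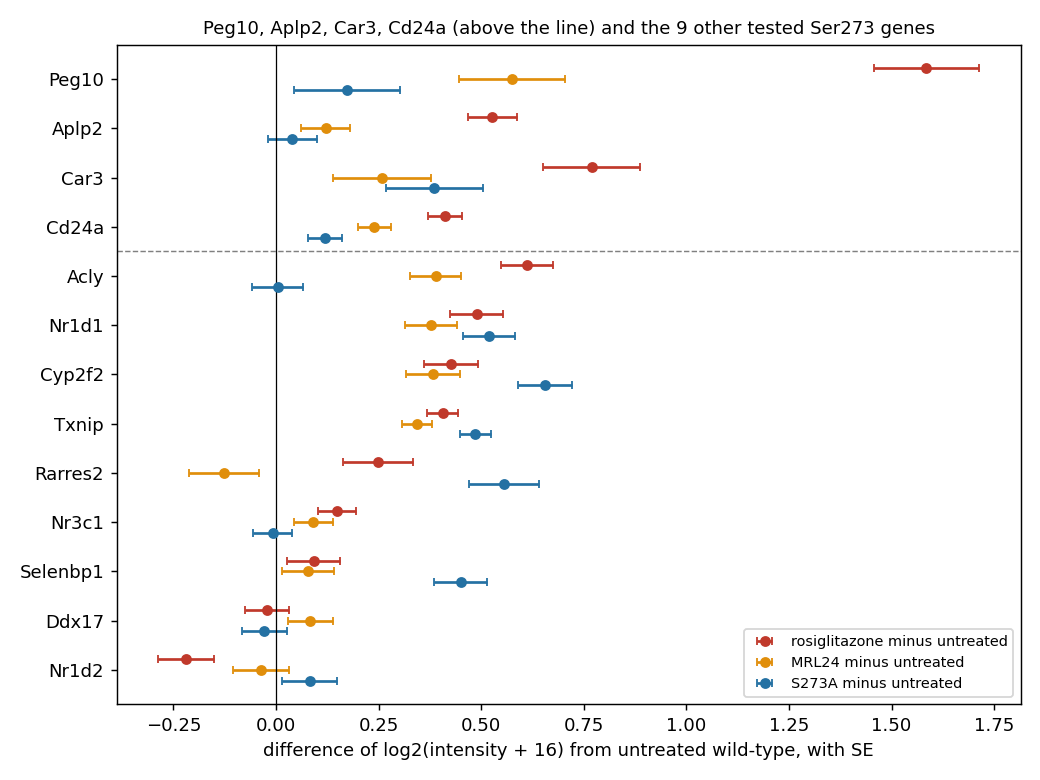
Difference of log2(intensity + 16) from untreated wild-type, with SE, for the brightest probe set of each gene. S273A lies to the right of rosiglitazone for Cyp2f2, Rarres2 and Selenbp1 (0.66, 0.56 and 0.45 with S273A, 0.43, 0.25 and 0.09 with rosiglitazone) and also for Txnip, Nr1d1 and Nr1d2, and to its left for Peg10, Aplp2, Car3 and Cd24a.

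Classic PPARγ agonist targets were listed for the same reading. Of 25 genes 19 were on the array and 14 were tested. The list was chosen with earlier results of these data known. With rosiglitazone 11 rose, with MRL24 6 rose, and 10 were higher with rosiglitazone than with MRL24. None fell in these 3 comparisons. Over all tested genes limma called 3.7%, 3.2% and 1.41% higher in them. With S273A 2 rose and 3 fell, against 2.11% and 5.01% over all tested genes. Without single arrays the calls of Retsat with rosiglitazone, of Acaa1b, Lpl and Slc2a4 with MRL24 and of Scd1 with S273A were lost. That of Hilpda between the ligands was lost as well. The median differences were 0.55 with rosiglitazone, 0.19 with MRL24 and 0.05 with S273A.

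The genes whose pattern over the 12 arrays lay closest to each of the 4 were found by Pearson correlation of log2(intensity + 16) with the brightest probe set, over the 9154 tested genes. The 12 arrays are 4 groups of 3, so the values describe likeness over few groups. Closest to Peg10 were Acaa1b, a peroxisomal thiolase gene (r = 0.986), Lpl, which encodes lipoprotein lipase (0.970), and Fabp4, which encodes a cytosolic fatty acid carrier of adipocytes (0.965). Acaa1b averaged 736 with rosiglitazone, 229 with MRL24, 143 in S273A and 136 in untreated cells. Fabp4 averaged 25153 with rosiglitazone, 15339 with MRL24, 9701 in S273A and 9509 in untreated cells.

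Aplp2, by its brightest probe set, was closest to Dgat2, the last enzyme of triglyceride synthesis (0.975), the carboxypeptidase inhibitor gene Lxn (0.959) and the cytoskeletal gene Pdlim1 (0.948). Dgat2 differed from untreated cells by 0.47 with rosiglitazone, 0.15 with MRL24 and 0.08 with S273A. Car3, by 1460256_at, was closest to Pcx, which encodes pyruvate carboxylase (0.95), Sh3glb2 (0.939) and the kinase gene Cdk18 (0.935). All of these had higher means with S273A than with MRL24, as that Car3 probe set did. They were picked by its pattern, so the shared order is no separate evidence. The other Car3 probe set, 1449434_at, had the reverse order, with means of 121 in S273A and 133 with MRL24. For Cdk18 the means were 960 with rosiglitazone, 581 with MRL24, 708 in S273A and 483 in untreated cells.

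Cd24a was closest to Cd36, the fatty acid transporter gene (0.969), Fgfrl1, a decoy receptor gene for fibroblast growth factors (0.960), and Rnf19b, a ubiquitin ligase gene (0.959). The order was shared and the size was not: Cd36 differed from untreated cells by 3.003 with rosiglitazone, 1.25 with MRL24 and 0.82 with S273A. Of these 12 genes 9 had a promoter window, and Cd36 was among them (RefSeq, GRCm38.p6, chr5:17835847-17836146, minus strand). It was chosen after its letters were seen, because it holds a half-site, in capitals, as the reverse complement of AGGTCA. Of the 9 genes 2 held a half-site, Cd36 and Pcx (in 1 of its 2 windows), against 16.3% of all windows.
Cd36: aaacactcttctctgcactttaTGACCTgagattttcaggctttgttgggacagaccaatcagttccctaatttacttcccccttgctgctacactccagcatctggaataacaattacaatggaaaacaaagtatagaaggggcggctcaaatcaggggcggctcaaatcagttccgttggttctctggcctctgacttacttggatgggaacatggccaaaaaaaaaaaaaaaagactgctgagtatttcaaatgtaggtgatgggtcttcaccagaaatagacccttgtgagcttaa
This match lay 228 bases before the annotated start and had no other half-site 1 base away. The Cd36 window was 43% G or C with 3 CpG pairs, against 67% and 29 in Aplp2.

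**Figure D4:**
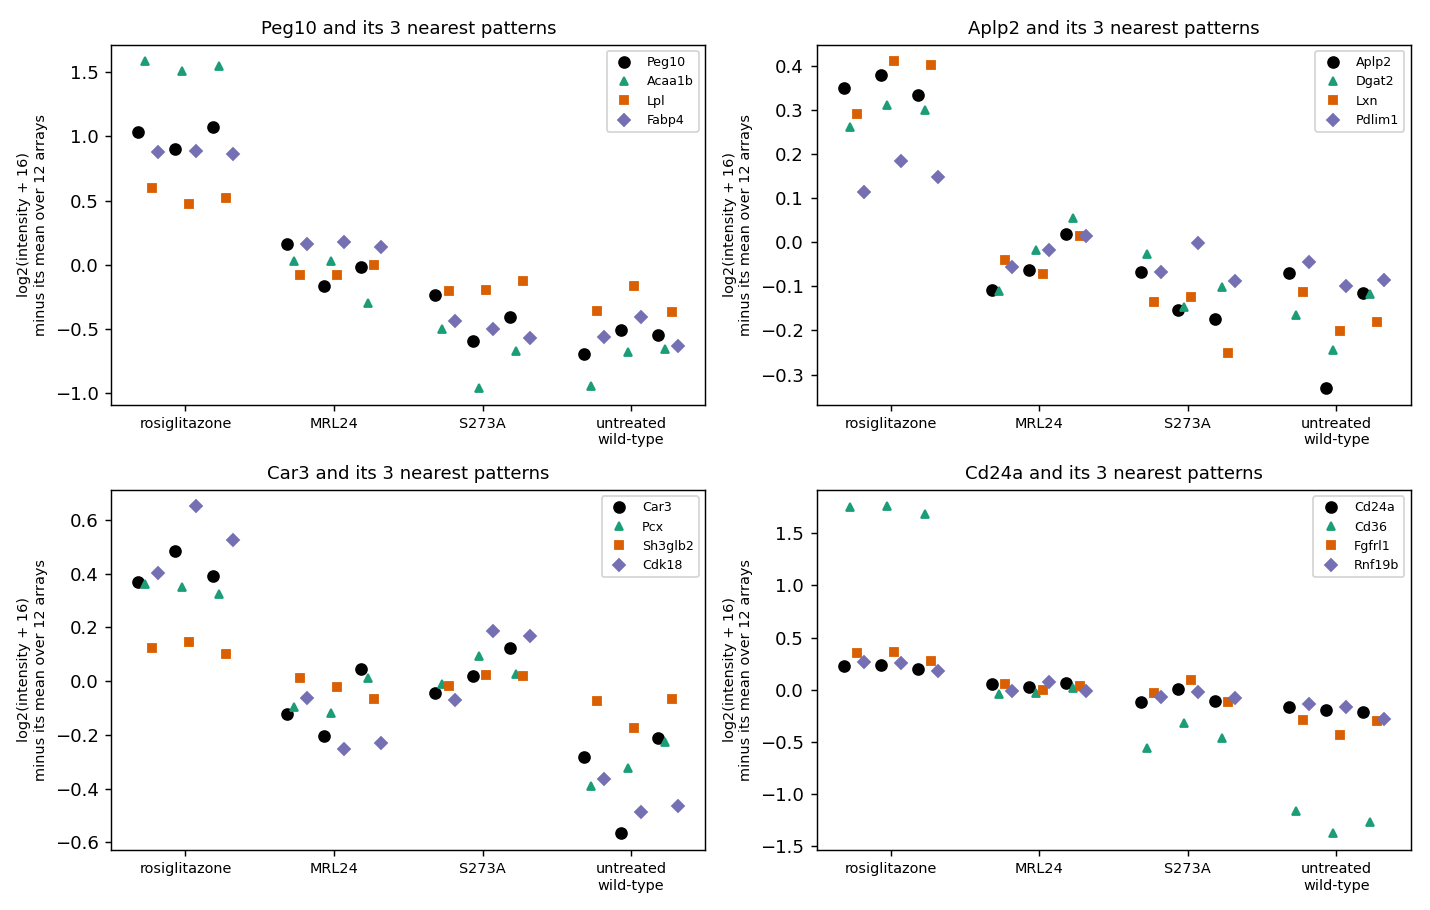
Values of log2(intensity + 16) minus their mean over the 12 arrays, for Peg10, Aplp2, Car3 and Cd24a (black circles) and the 3 genes closest to each, by group and replicate. The spread between groups differs between genes of like order: rosiglitazone minus untreated was 3.003 for Cd36 and 0.41 for Cd24a.

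Over all pairs of the 11 probe sets, the correlation across the 12 arrays was 0.78 to 0.987 for the 14 pairs of the same gene and 0.508 to 0.969 for the 41 pairs of different genes. The lowest was between 1421888_x_at of Aplp2 and 1416034_at of Cd24a.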

How the data were processed

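Gene expression was measured in 12 samples on an Affymetrix mouse array, per the labels with biotin-labelled RNA. What the authors deposited was linear-scale intensity; their normalization and array software are not given in the sources used here. Every column was used.

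Of 22690 probe sets 64 were controls, 20380 had 1 gene symbol in the platform annotation, 691 had several and 1555 were unnamed here. An Entrez ID matched for 20351, and 0 symbols changed. Each gene was represented by the probe set of highest mean log2(value + 16), and genes under the 30th percentile of all probe sets, 98.7 in intensity, were dropped, so that 9154 were tested. Differences are on log2(value + 16), so those of dim genes are understated; the differences of Peg10, Aplp2, Car3 and Cd24a come from a fit of all probe sets without the filter.

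All 12 arrays were fitted in 1 model of 4 groups with limma 3.58.1 in R 4.3.3 (eBayes with trend, 8 residual degrees of freedom), and p-values were Benjamini-Hochberg adjusted over all tested genes, with a threshold of 0.05. The precision is limited by the 3 arrays per group. Simulated arrays with known changes were used to check the fit. Promoter windows and gene positions came from RefSeq tables of GRCm38.p6. Python 3.11.15, pandas 2.3.3 and matplotlib 3.10.9 were used.

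The 4 genes and the gene lists were chosen with earlier results of these data known. Genes were named by rule: all probe sets of the 4 genes, the 3 most correlated genes of each, called members of each list with the largest differences (at most 6), the relatives App, Aplp1, Car2, Car4, Sgce and Ppp1r9a, Pparg and the markers. Fewer are described. Pparg itself averaged 834 ± 76.1 with rosiglitazone, 846 ± 20.7 with MRL24, 1073 ± 162 in S273A and 904 ± 97.7 in untreated cells, and what its probes cover was not analysed here. Alternatives were other pseudocounts, filters, probe set summaries and scalings, a replicate block, array weights, fits to 6 arrays and leaving out each array.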

Additional observations from a re-analysis of the deposited data

How the results depend on the processing

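Over all alternatives, 836 differences of the 11 probe sets from the 4 comparisons were recomputed. Of these, 11 moved by more than the residual SD, and 0 of the differences larger than that SD changed sign. Many of the 836 could not change by design. A difference of group means stays the same without an array of a group outside the comparison. It also stays the same in a fit to only the arrays compared or with a replicate block. The count of 836 therefore overstates how far these differences were checked. A pseudocount of 1 gave 1.738 for Peg10 with rosiglitazone, and one of 64 gave 1.244, 0.418 with MRL24 and 0.826 between the ligands, and 0.61 for 1460256_at of Car3 with rosiglitazone. Setting all arrays to the same median gave 0.195 for 1448182_a_at of Cd24a with MRL24, and leaving out single arrays gave 0.08 to 0.141 for it with S273A.

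Counts of called genes over all genes depended on single arrays: 383 to 762 with rosiglitazone (721 with all arrays), 76 to 813 with MRL24 (503), 389 to 630 with S273A (652) and 96 to 480 for rosiglitazone against MRL24 (229). The lowest came without rosiglitazone replicate 2, MRL24 replicate 3, S273A replicate 3 and MRL24 replicate 2. Fits to the 6 arrays compared gave 355, 51, 238 and 546, no filter gave 225 with MRL24, and array weights gave 637 between the ligands. The split with MRL24 was 293 higher and 210 lower as deposited, 251 and 314 after quantile normalization and 206 and 476 with equal medians.

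Among the 9 other Ser273 genes, 7 were called with rosiglitazone by the mean of all probe sets, 2 with MRL24 in the fit to 6 arrays, and between the ligands 0 by the mean of all probe sets, 0 to 2 without single arrays, 2 with equal medians or with array weights (Acly and Rarres2) and 2 in the fit to 6 arrays. Without a filter 11 were tested and 2 called between the ligands, Adipoq and Cidec, while Rarres2 was not (adjusted p = 0.0647). Replicate numbers are shared between groups, but deviations of same-numbered arrays correlated at -0.089 to 0.127 in 18 pairs, over 0.1 in 1, so the numbers were not taken as pairs. With a replicate block the counts were 608, 350, 538 and 174, and the other Ser273 counts 4, 4, 5 and 1. Each replicate number occurs once in every group, so the block leaves the differences of Peg10, Aplp2, Car3 and Cd24a the same by design. Dim probe sets (Peg10, Car3) are limited by their closeness to the filter level.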
